A study of Homo sapiens with 2 samples.

Results

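The genes described here encode the subunits of the proteasome, the protease that degrades ubiquitin-tagged proteins. They were chosen by name: every protein-coding gene of GENCODE release 29 whose symbol is PSMA, PSMB, PSMC, PSMD or PSME followed by a number. That gave 43 genes, 19 of the core particle (PSMA and PSMB) and 24 of the regulatory particle and activators (PSMC, PSMD and PSME). Peaks were listed for 38 of the 43 in both libraries, out of 20048 gene entries with peaks, 13209 of them protein-coding. They held 471 of the 100792 peak entries of replicate 1 and 477 of the 109413 of replicate 2. No peak was listed for PSMA8, PSMB8, PSMB9, PSMB11 and PSMD5 in either library. Peaks in both libraries were listed for 56.9% of all 19951 annotated protein-coding genes.

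The study took cytoplasmic RNA of HEK293T, a human cell line of embryonic kidney origin, after 24 hours of doxycycline at 3 ug/mL. It has 1 group, labelled TRACER, with 2 libraries, and its stated purpose is to find RNA elements in cis that bind the CCR4-NOT complex, the major deadenylase of the cytoplasm. Libraries are called by the replicate numbers of the sample titles, which differ from the numbers in the library names for replicate 1 but not for replicate 2. The labels do not spell out TRACER, name no gene that doxycycline switches on, and give no untreated or input library. A peak is a stretch of RNA where CLIPper, a caller of crosslinking peaks, found more reads than elsewhere in the gene. A peak's reads rise with the amount of the RNA as well as with any association, and without an input library these cannot be told apart. The labels leave unsaid if the replicates came from different cultures, so errors, given as the SD over the 2 libraries (n = 2), may be technical only. No test between conditions is possible, and all values below are descriptions.

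The proteasome's core particle is a barrel of stacked rings. Its outer rings are made of alpha subunits, which gate the entry, and its inner rings of beta subunits, of which PSMB5, PSMB6 and PSMB7 cut peptide bonds. The regulatory particle caps the barrel: its base holds a ring of PSMC ATPases that unfold substrates, and its PSMD subunits bind ubiquitin, remove it and hold the particle together. In cells exposed to interferon, PSMB8, PSMB9 and PSMB10 replace the constitutive catalytic subunits, and PSME1 and PSME2 form an alternative cap. The subunits are needed in fixed proportions, and the transcription factor NFE2L1 raises their genes together when proteasome activity falls.

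The sequences under the strongest peaks found in both libraries are shown first, because they are the sites with the most reads in both libraries. A peak counted as found in both libraries, or repeated, when same-strand peaks of the 2 lists overlapped by 1 nt or more, and the strongest is the pair with the most reads in the lower library. All sequences are GENCODE 29 transcripts on GRCh38, sense strand, written with T for U. In the coding sequence (CDS) peaks, capitals mark the bases under the peaks of both libraries, with up to 10 nt of flank in lower case. The 6 core genes are PSMB1 (chr6:170535261-170535328, minus strand), PSMB4 (chr1:151400764-151400808, plus), PSMA7 (chr20:62140882-62140923, minus), PSMB6 (chr17:4797746-4797812, plus), PSMB2 (chr1:35636345-35636402, minus) and PSMA3 (chr14:58270439-58270485, plus).
PSMB1: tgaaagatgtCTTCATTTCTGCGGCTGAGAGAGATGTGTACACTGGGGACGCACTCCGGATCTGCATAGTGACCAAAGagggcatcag
PSMB4: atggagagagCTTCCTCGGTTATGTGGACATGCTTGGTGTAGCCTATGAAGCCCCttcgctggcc
PSMA7: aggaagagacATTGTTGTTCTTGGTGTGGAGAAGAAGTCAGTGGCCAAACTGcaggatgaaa
PSMB6: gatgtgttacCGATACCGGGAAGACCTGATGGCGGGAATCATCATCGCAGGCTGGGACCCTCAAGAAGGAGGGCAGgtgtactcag
PSMB2: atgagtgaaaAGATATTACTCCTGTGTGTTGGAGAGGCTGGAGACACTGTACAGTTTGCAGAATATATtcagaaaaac
PSMA3: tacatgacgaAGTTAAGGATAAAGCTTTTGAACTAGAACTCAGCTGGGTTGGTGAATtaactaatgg

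The PSMB1 peak held 97 and 80 reads in replicates 1 and 2 and lay in exon 6 of 6, with its summit at base 636 of the CDS. It was the strongest of any core gene by its lower count, and it held 28.9% and 25% of the reads of PSMB1. PSMB4 had 53 and 74 reads in exon 4 of 7. PSMA7 had 45 and 74 reads in exon 2 of 7, and these were 26.0% and 43.8% of the gene's reads. PSMB6 had 44 and 57 reads in exon 4 of 6, PSMB2 had 40 and 47 in exon 2 of 6, and PSMA3 had 31 and 37 in exon 9 of 11. So each of these core transcripts carried its strongest repeated peak inside the CDS, in exons from the second of the transcript to the last.

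Of the 6 regulatory genes with the strongest repeated peaks, 4 had them in the CDS, in PSMD7 (chr16:74305646-74305722, plus strand), PSMD6 (chr3:64022380-64022439, minus), PSMD8 (chr19:38374859-38374922, plus) and PSME3 (chr17:42838164-42838202, plus).
PSMD7: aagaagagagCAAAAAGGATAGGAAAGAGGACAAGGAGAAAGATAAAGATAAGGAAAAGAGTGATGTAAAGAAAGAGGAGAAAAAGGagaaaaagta
PSMD6: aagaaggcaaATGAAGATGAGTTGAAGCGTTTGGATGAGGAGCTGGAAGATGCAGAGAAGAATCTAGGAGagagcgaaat
PSMD8: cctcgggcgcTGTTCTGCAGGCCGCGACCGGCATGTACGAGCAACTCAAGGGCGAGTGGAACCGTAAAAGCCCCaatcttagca
PSME3: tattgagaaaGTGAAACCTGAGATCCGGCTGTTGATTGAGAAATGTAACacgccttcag

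PSMD7, a lid subunit that partners the deubiquitinase PSMD14, had 55 and 78 reads in this peak in exon 7 of 7, or 31.8% and 41.9% of its reads. The printed stretch is a nearly unbroken run of purines: 90.7% of its bases are A or G, against 59.0% over the whole CDS. The PSMD6 stretch, with 31 and 36 reads in exon 2 of 8, was 76.3% purine against 55.1% over its CDS. PSMD8 had 28 and 28 reads in exon 1 of 7 and PSME3 had 24 and 30 in exon 6 of 11, with 53.6% and 57.6% purine. Among the 4 genes, only PSMD7 and PSMD6 thus had a stretch far richer in purines than their CDS.

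The other 2 regulatory genes, PSMD4 and PSMC6, had their strongest repeated peak at the stop codon. For these, and for 3′ untranslated region (3′ UTR) peaks that bear on the results below, 30 nt around the summit of replicate 1 are shown, with the stop codon and the letters TGTA in capitals. TGTA is the start of the element TGTANATA that Pumilio proteins bind, and Pumilio proteins are known to recruit CCR4-NOT. In PSMC6 the TGTA and the stop codon TAA overlap. The windows shown for PSMB1, PSMD10, PSMD12 and PSMA5 all hold TGTA. Those of PSME3, PSMD11, PSMA4 and PSMB4 do not and are not shown. The printed windows therefore do not show how common TGTA is, and its share over all windows is given below. The peaks lie at chr1:151267300-151267365 (PSMD4, plus strand), chr14:52727604-52727674 (PSMC6, plus), chr6:170535149-170535190 (PSMB1, minus), chrX:108084930-108084958 (PSMD10, minus), chr17:67340759-67340799 (PSMD12, minus) and chr1:109401888-109401903 (PSMA5, minus).
PSMD4: aagacaagaagTGAgactggagggaaaggg
PSMC6: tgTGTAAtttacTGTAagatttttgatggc
PSMB1: atttTGTActttggaacTGTAccttggatg
PSMD10: ttacttTGTAtgttgtgttgttgtccccag
PSMD12: gttataatggTGTAtatgttggggtttttt
PSMA5: ttaaatgatgtcTGTAcataaaggcagttc

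Reads in peaks, summed per gene, were spread over most of the complex. The core genes held 2591 reads in replicate 1 and 2735 in replicate 2, and the regulatory genes 3107 and 3551. Core reads made up 0.268% ± 0.0121 of all reads in peaks of protein-coding genes, and regulatory reads 0.335% ± 0.00370. The median core gene had 140 ± 2.83 reads and the median regulatory gene 124 ± 11.3. Per kilobase (kb) of the representative transcript, which allows levels to be compared between genes but is not scaled to library size, the core median was 87.7 ± 1.48 reads per kb and the regulatory median 61.2 ± 3.93. The core median was thus 1.44 ± 0.068 times the regulatory one, with the genes at 0 included. The median over all protein-coding genes was 2.25 ± 0.314 reads per kb, and over those with at least 10 reads it was 16.4 ± 1.52. The 8 subunit genes of the CCT chaperonin, another cytosolic ring complex, had a median of 182 ± 3.76 and the 81 cytosolic ribosomal protein genes one of 481 ± 19.6 reads per kb.

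**Figure D1:**
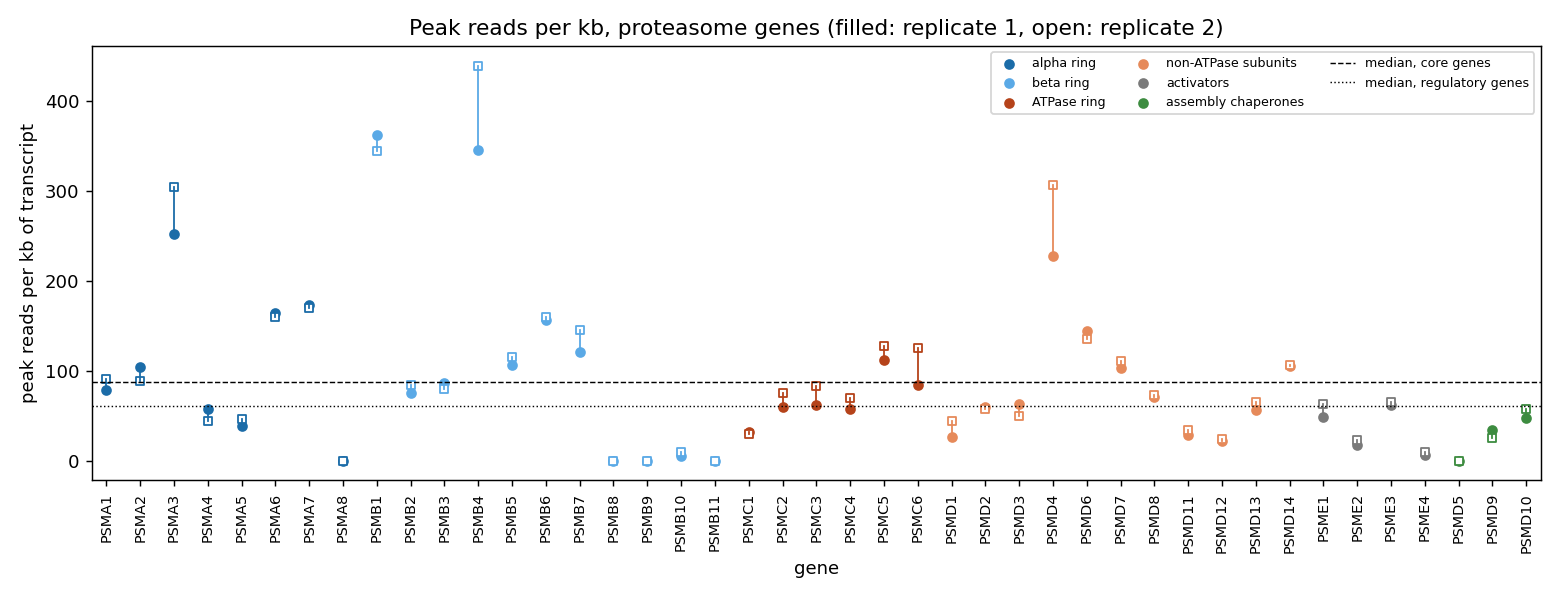
Peak reads per kb of the representative transcript (y axis) for each of the 43 genes (x axis), with replicate 1 filled, replicate 2 open, colours for the parts of the complex and lines at the core and regulatory medians. PSMB4, PSMB1, PSMA3 and PSMD4 stand above the rest, and 5 genes sit at 0.

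Within the core particle, with genes at 0 included, the alpha and beta rings had similar medians, 90.4 ± 1.24 and 85.5 ± 1.60 reads per kb. Among genes with at least 10 reads the medians were 97.3 ± 9.81 and 125 ± 6.80, with the beta ring the higher in both libraries. In the regulatory particle the ATPase ring had 69.7 ± 13.0 and the non-ATPase subunits had 63.9 ± 1.93. The activators PSME1 to PSME4 had 38.0 ± 6.68, and PSMD5, PSMD9 and PSMD10, which are chaperones of base assembly and not subunits of the finished particle, had 29.6 ± 6.86. By their medians the activators and chaperones were thus at the low end of the regulatory class. Not every gene was: PSME3, at 63.9 ± 2.25 reads per kb, lay above the regulatory median of 61.2. The chaperone median counts PSMD5 at 0. The core median stayed above the regulatory one, at 1.38 times, without the activators and at 1.40 times without the chaperones. The ratio was larger when reads and lengths were restricted to the CDS, 1.77, and smaller when genes with an annotated pseudogene in the lists were left out, 1.31.

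Of the catalytic beta subunits, the constitutive PSMB5 had 138 and 149 reads in replicates 1 and 2, PSMB6 had 133 and 136, and PSMB7 had 118 and 142. The 3 fall between 118 and 149 reads, so by reads the libraries differed within a gene about as much as the genes differed from each other. Per kb the 3 were at 111 ± 6.01, 158 ± 2.49 and 133 ± 17.3, and PSMB6 was the highest of them in both libraries. Their interferon-inducible counterparts PSMB8 and PSMB9 had no listed peak, and PSMB10 had 6 and 11 reads. All 6 reads of PSMB10 in replicate 1, and 7 of the 11 in replicate 2, lay in peaks that were also listed under the overlapping entry AC040162.1. Among interferon response genes, HLA-B had 58 and 57 reads and MX1 had 3 and 6. IFIT1 had 11 reads in replicate 2 only, and IFIT2, IFIT3, ISG15, OAS1, TAP1 and GBP1 were listed in neither library. A gene without a listed peak may still be expressed, since the lists start at 3 reads per peak.

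PSMA8, the alpha subunit of the testis, and PSMB11, the catalytic subunit of the thymus cortex, had no listed peak either. The markers of the line, LIN28B, VIM, PAX2, NEFM, SOX4 and IGF2BP1, were 6 of 6 with peaks in both libraries, with 1503 and 1928 reads in all. Of 8 markers of other tissues, 7 had none (ALB, HBB, INS, PTPRC, CD3E, KRT5 and COL1A1), and GFAP had 3 reads in replicate 2.

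Among the other beta subunits, PSMB4 had 333 and 424 reads, or 393 ± 66.7 per kb, and PSMB1 had 336 and 320 reads, or 353 ± 12.2 per kb. They had the most reads of the core in both libraries, with PSMB1 the higher in replicate 1 and PSMB4 in replicate 2. Neither PSMB1 nor PSMB4 has a catalytic site, and both lie above every catalytic subunit in both libraries. PSMB2 had 204 and 228 reads, 80.0 ± 6.28 per kb, and PSMB3 had 67 and 62.

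Per kb the highest of the alpha ring in both libraries was PSMA3, with 245 and 296 reads or 279 ± 37.2 per kb. PSMA4 had 254 and 192 reads, but its long transcript brought this to 50.6 ± 9.94 per kb. PSMA7 had 173 and 169 reads, 172 ± 2.84 per kb, close to PSMA6 with 169 and 165 reads, 162 ± 2.75 per kb. The other 3 alpha genes with peaks, PSMA1, PSMA2 and PSMA5, ranged from 118 to 173 reads. For PSMA6, 48 and 108 of its reads lay in peaks also listed under AL121594.1, an annotated gene entry that overlaps it, so these reads cannot be assigned to 1 of the 2 entries.

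PSMD4, a ubiquitin receptor of the regulatory particle, led that class with 307 and 414 reads, or 267 ± 56.0 per kb. It was the only regulatory gene above 200 reads per kb in both libraries. PSMD14, the deubiquitinase, had 206 and 208 reads or 106 ± 0.723 per kb. PSMD2, a scaffold of the base, had the same level of reads, 206 and 198, but 58.6 ± 1.64 per kb. The other 8 non-ATPase subunits ran from 86 to 206 reads and, per kb, from 22.8 ± 1.77 for PSMD12 to 140 ± 5.93 for PSMD6.

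The 6 ATPases form a ring with 1 copy of each, and all 6 had peaks in both libraries. PSMC6 had the most, 185 and 275 reads or 105 ± 29.1 per kb, and PSMC5 had 176 and 201. PSMC2 had 182 and 229 reads, 67.3 ± 10.9 per kb. PSMC1 had 141 and 132 reads, PSMC3 had 97 and 131, and PSMC4 had 91 and 111. Per kb the ring ran from PSMC1, at 30.7 ± 1.43, to PSMC5, at 119 ± 11.2.

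Part of the PSMC2 signal is uncertain. Its strongest repeated peak, chr7:103348668-103348718 on the plus strand, held 22 and 37 reads and lay in an intron, 887 nt after 1 exon and 5203 nt before the next. GENCODE places RPS29P16, a processed pseudogene of a ribosomal protein gene, over the same stretch and strand (chr7:103348601-103348771). In all, 27 and 48 of the reads of PSMC2 were intronic, the largest intronic count of any of the 43 genes, and the other reads were in the CDS or the 5′ UTR. No other gene of the set had an intronic peak of this size: PSMA3, PSMA7, PSMB2, PSMB7 and PSMD10 had 1 each in a single library, with 4 to 13 reads.

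The activators were uneven. PSME3, which forms the nuclear cap, had 196 and 206 reads, 63.9 ± 2.25 per kb. PSME1 had 49 and 63 reads, PSME2 had 25 and 32, and PSME4, a cap of a different fold with a very long transcript, had 41 and 70. Per kb they were at 55.7 ± 9.84 for PSME1, 20.3 ± 3.53 for PSME2 and 7.82 ± 2.89 for PSME4. Of the base assembly chaperones, PSMD9 had 96 and 69 reads and PSMD10 had 73 and 89. All 69 reads of PSMD9 in replicate 2, and 15 of the 96 in replicate 1, lay in peaks also listed under AC069503.2, an annotated gene that overlaps it.

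Reads per gene were alike in the 2 libraries. Across the 38 genes with peaks, Pearson's r of log2(reads + 1) was 0.962 and Spearman's rho 0.929; this is a correlation across genes, which share each library. Replicate 2 held more reads in 27 of the 38 genes and fewer in 11, with a median ratio of 1.13, near the 1.17 over all 7244 protein-coding genes with at least 20 reads. The largest ratios among genes with at least 20 reads were 1.71 for PSMD1 (86 and 147 reads), 1.71 for PSME4 and 1.49 for PSMC6. The smallest were 0.719 for PSMD9, 0.756 for PSMA4 and 0.793 for PSMD3 (135 and 107 reads). The ratios of all protein-coding genes ran from 0.724 at the lowest 5% to 1.98 at the highest 5%, and of these 6 genes PSMD9 alone lies outside that range.

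**Figure D2:**
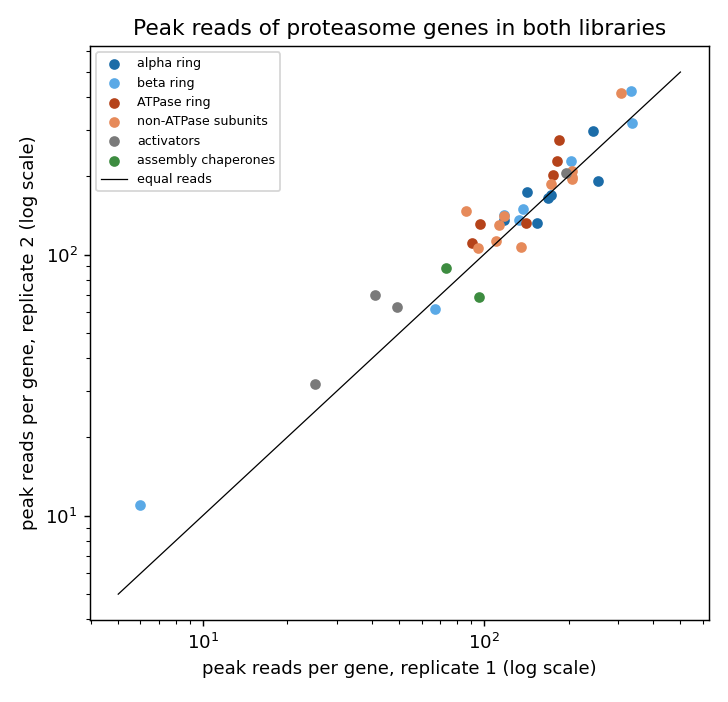
Peak reads per gene in replicate 1 (x axis, log scale) against replicate 2 (y axis, log scale) for the 38 genes with peaks, coloured by part of the complex, with a line of equal reads. Replicate 2 is higher in 27 genes, and PSMB10, with 6 and 11 reads, is the lowest.

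Most peaks of these genes were found again in the other library. Of the 471 peaks of replicate 1, 79.2% (exact 95% binomial interval 75.2 to 82.8) overlapped a peak of replicate 2, and 77.6% (73.6 to 81.2) in the other direction. For other protein-coding genes the shares were 59.1% and 54.2%. The peaks differed in depth too, with a median of 9 and 10 reads against 5 and 6. Among peaks of 3 to 4 reads the shares were 52.1% and 45.9% against 33.5% and 27.0%, and among peaks of 10 to 19 reads 92.1% and 86.3% against 87.7% and 81.8%. All 75 and all 90 peaks of at least 20 reads were found in the other library, beside 97.7% and 96.4% for other protein-coding genes. Core peaks overlapped in 82.1% and 90.5% and regulatory peaks in 77.7% and 71.7%, and core peaks were also deeper, with medians of 11.5 and 15 reads against 8 and 8. The intervals cover counting error only.

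Proteasome peaks lay mostly in the CDS. Shares of a gene's reads were taken where it had at least 10 reads, which left 14 and 15 of the 19 core genes and 23 and 23 of the 24 regulatory genes. The median core gene had 88.2% ± 5.20 of its reads in the CDS and the median regulatory gene 87.3% ± 1.19, against 53.5% ± 2.87 over all protein-coding genes. The core and regulatory medians differed by 0.932 ± 4.01 percentage points, and the sign turned between libraries (-1.90 in replicate 1 and 3.77 in replicate 2), so the classes are not distinguishable here. After subtracting the share of the CDS in the transcript length, the core excess was 19.4 percentage points, the regulatory one 21.0, and that of all protein-coding genes 4.94. PSMC3, PSMC4 and PSMD7 had every read in the CDS in both libraries.

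Peaks also covered much of the CDS itself. In the median core gene 37.6% ± 0.203 of CDS bases lay under a peak and in the median regulatory gene 31.4% ± 2.17, a difference of 6.21 ± 2.37 percentage points, with genes at 0 included. Core CDS are shorter, with a median of 768 nt against 1216.5 nt, and a part of length in this difference was not tested. With peaks of a deposited p at or under 1e-05 only, the difference was 16.3 points. The alpha ring had the highest median of the subclasses, 54.0% ± 0.0612, led by PSMA4 at 73.0% ± 7.20 and PSMA5 at 66.0% ± 2.34. The beta ring median, 25.4% ± 2.18, was below that of the regulatory class with genes at 0 included. Among genes with at least 10 reads the beta ring median was the higher, at 36.4% ± 1.92 against 31.8% ± 2.37. The lowest of the genes with peaks was PSME4, whose CDS is the longest of the set, at 4.68% ± 1.74, followed by PSMB10 at 6.08% ± 3.27. PSMD14 had the widest coverage of the regulatory genes, 62.0% ± 2.20. For comparison the medians were 34.9% in the CCT genes and 70.5% in the ribosomal protein genes. Over all protein-coding genes the median was 9.20% for those with at least 10 reads and 0.287% with genes at 0 included.

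**Figure D3:**
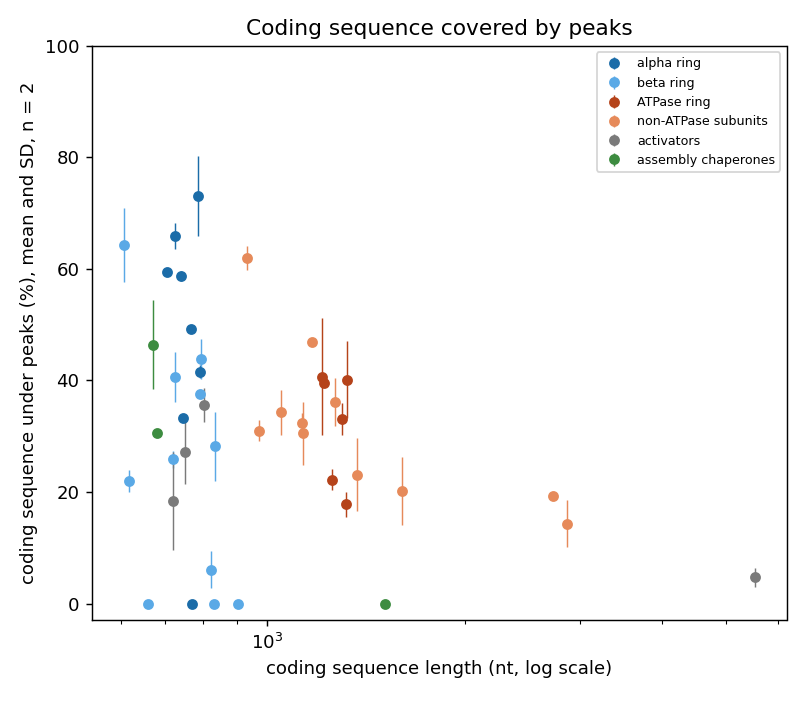
Percent of CDS bases under peaks (y axis, mean and SD of 2 libraries) against CDS length in nt (x axis, log scale) for the 43 genes, coloured by part of the complex. The alpha ring, led by PSMA4 at 73.0%, lies high at short CDS, PSME4 at 4.68% lies lowest of the genes with peaks at the longest CDS, and the 5 genes without peaks lie at 0.

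Reads were spread along the whole CDS. In the core genes the first, middle and last of 3 equal parts of the CDS held 31.2%, 40.3% and 28.5% of CDS reads in replicate 1 and 34.5%, 37.5% and 28.0% in replicate 2. In the regulatory genes they held 38.1%, 30.05% and 31.8%, and then 40.8%, 28.9% and 30.3%. All protein-coding genes had 36.8%, 32.7% and 30.5% in replicate 1. By reads, the middle of core CDS thus took the largest share in both libraries. In regulatory CDS the start did, and so it did over all protein-coding genes. Counted by summits, the core parts held 30.1%, 36.8% and 33.1% in replicate 1. In replicate 2 they held 32.0%, 32.0% and 35.9%, so the middle did not lead there. In 30 nt around the strongest summit of the genes where it lay in the CDS (14 and 13 core and 18 and 18 regulatory genes), purines made up 56.7% and 57.4% of bases in the core genes and 64.1% and 69.8% in the regulatory genes, against 53.4% and 52.9%, and 55.1% and 55.3%, over the same genes' whole CDS. All protein-coding genes had 62.3% and 62.8%, against 53.3% and 53.3% over their whole CDS. Both classes, like all protein-coding genes, were above their own CDS in both libraries, and the regulatory windows were richer than the core ones.

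Reads in the 3′ UTR were fewer than in most genes. The median core gene had 5.49% ± 1.098 of its reads there and the median regulatory gene 6.70% ± 0.813, against 21.2% ± 0.557 over all protein-coding genes. No proteasome gene had over 50% of its reads in the 3′ UTR in either library, against 21.5% of protein-coding genes in replicate 1 and 20.3% in replicate 2. The 3′ UTRs of these genes are also short: after subtracting their share of the transcript length the core median was -11.1 percentage points, the regulatory one -9.42 and that of all protein-coding genes -12.7, so the classes and the genome are close on this scale. The CCT and ribosomal protein genes had 5.32% and 4.29%. The core median was 1.20 percentage points below the regulatory one with all peaks, and it was 3.57 points above it with peaks of a deposited p at or under 1e-05, so neither class can be called the higher.

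**Figure D4:**
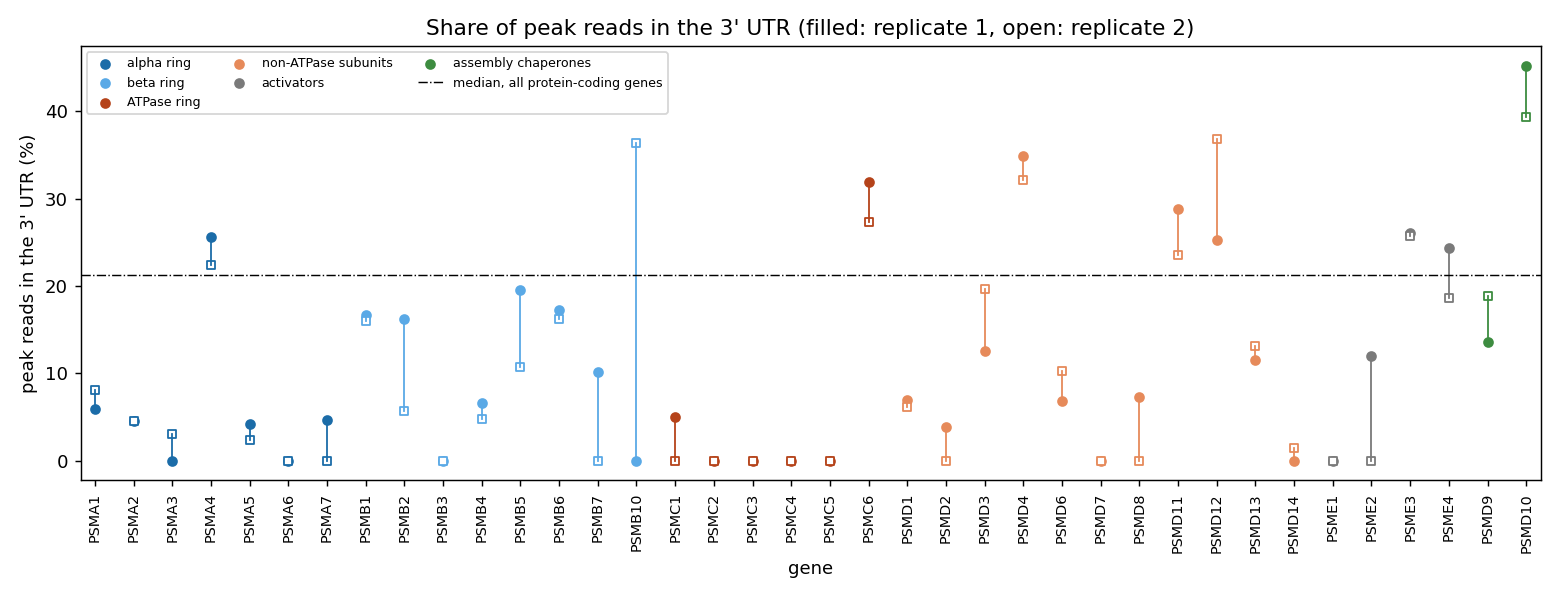
Percent of a gene's peak reads in the 3′ UTR (y axis) for the 38 genes with peaks (x axis), replicate 1 filled and replicate 2 open, with the median over all protein-coding genes as a line. PSMA4, PSMC6, PSMD4, PSMD10, PSMD11, PSMD12 and PSME3 lie above the line in both libraries, 4 of the 6 ATPases lie at 0 in both, and PSMB10 rests on 6 and 11 reads.

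A 3′ UTR peak found in both libraries was present in 21 of the 38 genes, or 55.3%, near the 49.5% of the 11355 protein-coding genes with peaks in both libraries. With peaks of a deposited p at or under 1e-05 only, 12 genes had one. By class they were 9 of 15 core genes and 12 of 23 regulatory genes. The ATPase ring had a median of 0% in both libraries, and PSMC6 was the only one of its 6 genes with a repeated 3′ UTR peak. The other 20 genes were PSMA1, PSMA2, PSMA4, PSMA5, PSMB1, PSMB2, PSMB4, PSMB5 and PSMB6 in the core and PSMD1, PSMD3, PSMD4, PSMD6, PSMD9, PSMD10, PSMD11, PSMD12, PSMD13, PSME3 and PSME4 in the regulatory class.

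PSMD4 had the most 3′ UTR reads, 107 and 133, or 34.9% and 32.1% of its reads. Its repeated peak at the stop codon, with 68 and 74 reads, had its summit 2 nt after the stop codon. PSMC6 had 59 and 75 reads there, 31.9% and 27.3%, of which 45 and 60 lay in the printed peak 9 nt after the stop codon. In PSMA4 65 and 43 reads were assigned to the 3′ UTR, 25.6% and 22.4%; in the representative transcript the strongest of its peaks is in the CDS, so that call rests on another isoform.

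PSMB1 had 56 and 51 reads in the 3′ UTR, 16.7% and 15.9%, with 30 and 31 in the printed peak. PSME3 had 51 and 53, 26.0% and 25.7%, and its strongest repeated 3′ UTR peak lay 1541 nt after the stop codon, the farthest of any of the genes. PSMD10 had 33 and 35 reads and the largest share of all with at least 20 reads, 45.2% and 39.3%. PSMD11 had 34 and 33, 28.8% and 23.6%, and PSMD12 24 and 39, 25.3% and 36.8%. In 17 genes the strongest repeated 3′ UTR peak was also 3′ UTR in the representative transcript, with a median of 125 nt after the stop codon, and in 10 of the 17 it was within 130 nt. PSMA4, PSMB5, PSMB6 and PSMD6 were the other 4, where the representative transcript has CDS. The distance is bounded by the length of the 3′ UTR, which is 103 nt in PSMB1, 115 nt in PSMB4 and 136 nt in PSMD4. The count within 130 nt was not set against all protein-coding genes, so it shows no preference for sites near the stop codon.

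The 5′ UTR held 5.22% ± 2.83 of all core reads and 2.82% ± 0.159 of all regulatory reads, summed over genes. PSMA4 with 43 and 32 reads and PSMB2 with 47 and 30 had the most core reads there in both libraries, and in the regulatory class PSME3 had 19 and 38 and PSMD14 had 26 and 16. The shares differed between classes by less than the spread of the core value between libraries.

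Sequence motifs (6 in all) were searched on the sense strand in the 30 nt around the strongest summit of each of the 38 genes. TGTANATA, the Pumilio element, was in 0 windows of either library, against 2.32% and 2.78% of windows of all protein-coding genes. ATTTA, the core of AU-rich elements, was in 1 and 1, against 2.13% and 1.81% of windows of all protein-coding genes. GGGNNNGGG was in 1 and 2, against 1.88% and 2.08%. The reversed Pumilio letters ATANATGT, the C-rich CCTCCC and the GU repeat TGTGTGT were in none. With so few windows a share of a few percent would give 1 or 0 windows. No match says only that these letters are not in these windows.

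In whole 3′ UTRs the Pumilio element was found 5 times in 4 of the genes, PSMA2, PSMA5, PSMC2 and PSMD12. Only the TGTACATA of PSMA5 (chr1:109401884-109401891, minus strand), 122 nt after the stop codon, overlapped a peak in both libraries by 1 nt or more, and those peaks held 6 and 4 reads. The peak of replicate 1 covered the whole element and that of replicate 2 only a part of it. Over all protein-coding genes with peaks, 864 of 5749 elements overlapped peaks of both libraries on the same count. The shorter TGTA was in 10 of 24 and 8 of 22 strongest 3′ UTR windows, 41.7% and 36.4%, against 36.8% and 38.1% over all protein-coding genes. It was in the windows of PSMA1, PSMA5, PSMB1, PSMC6, PSMD12 and PSMD3 in both libraries. The share is near that of all genes.

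Related genes of the pathway had peaks throughout. Of 7 assembly chaperones and inhibitor genes (PSMG1 to PSMG4, POMP, PAAF1 and PSMF1), all 7 had peaks in both libraries and 4 had a repeated 3′ UTR peak. PSMG1, a chaperone of the alpha ring, had 237 and 331 reads. PSMG3 and PSMG4, another chaperone pair, picked after their values were seen, had 66.7% and 61.2%, and 75.4% and 56.3%, of their reads in the 3′ UTR. No proteasome gene with at least 20 reads reached 50%, so PSMG3 and PSMG4 stand above all of them in both libraries. The rest of their list did not: PSMG2, POMP and PAAF1 had 0% in both libraries, and the median of the 7 genes was 5.26% and 10.8%. Of all protein-coding genes, 21.5% and 20.3% had over 50% of their reads in the 3′ UTR. Of 7 other regulatory subunits and bound factors, all 7 had peaks and 4 a repeated 3′ UTR peak; SEM1, a small lid subunit, had 299 and 223 reads, and UBE3C, a proteasome-bound ubiquitin ligase, had 226 and 205.

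Of 10 genes for ubiquitin shuttles and for control of proteasome transcription, all 10 had peaks and 6 had a repeated 3′ UTR peak. Their median 3′ UTR share was 31.9% and 29.5%, above the core and regulatory medians in both libraries. The medians over all protein-coding genes were 21.6% and 20.8%. Single genes of the list ran from 0% (NGLY1, both libraries) to 57.9% (DDI2, replicate 1) and 74.5% (UBQLN4, replicate 2). The share of the 3′ UTR in transcript length was not subtracted here. NFE2L1, the transcription factor named above, had 339 and 429 reads, with a 3′ UTR share of 44.5% and 44.1%. VCP, the segregase that hands substrates to the proteasome, had 221 and 325 reads, and RAD23B, a shuttle, had 251 and 277.

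Pseudogenes limit some of these values. The lists held 24 pseudogene entries named for 10 of the genes, with 345 and 358 reads in all. PSMC1 had 10 such copies with 145 and 187 reads, beside 141 and 132 for PSMC1 itself. The copies of PSMA6 held 83 and 70 reads, and that of PSMD4 51 and 35. The counts of PSMC1, PSMA6 and PSMD4 are therefore uncertain in size, since reads can be placed at a copy or at the gene.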

How the data were processed

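Peaks of 2 libraries of 1 group were used. The submitters' processing notes name STAR 2.7.11, cutadapt 4.2, UMI-tools 1.1.4 and the build GRCh38. Per the names of the deposited files, CLIPper (version and gene models not given in the sources used here) called peaks separately per library. In the peak lists the deposited score column holds a p-value per peak, with no adjustment stated. Each deposited peak name holds a gene identifier and a whole number of reads, not normalised, with a minimum of 3. A read can count in several peaks, so sums of reads are not sequencing depth, which is unknown here. Replicate 1 held 96682 distinct peaks with 1585446 reads and replicate 2 held 105125 with 1663907.

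The members and lists were chosen with earlier results of these data known. A summit, the middle of the deposited thick interval, was assigned on the same strand to 3′ UTR, CDS, 5′ UTR, non-coding exon or intron, in that order, over all coding transcripts of the gene in GENCODE 29; lengths and sequences are of 1 representative transcript. Reads were summed per gene entry. Genes described in full were set by a rule: the 6 core and 6 regulatory genes with most reads, the catalytic pairs, the tissue-restricted genes, the activators, the assembly chaperones, the genes with repeated 3′ UTR peaks (the 8 with most reads there in full) and the 3 largest library ratios each way. No test was run, since 1 group gives no comparison and genes are not replicates. The assignment was run on simulated points placed in single representative transcripts. That checks the code only, and the choice among isoforms was not tested. Part of the interferon response list is not reported here. Alternatives changed the peak threshold, minimum reads, region priority, gene model, classes, lengths, overlap, windows and libraries. Tools were matplotlib 3.10.9, scipy 1.17.1, pandas 2.3.3, numpy 2.4.6 and Python 3.11.15.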

Additional observations from a re-analysis of the deposited data

How the results depend on the processing

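The core over regulatory ratio of median reads per kb stayed above 1 in every alternative run: 1.78 without genes at 0, 1.77 with CDS reads per CDS length, 2.02 with peaks of p at or under 1e-05 and 1.31 without genes that have pseudogene entries (an alternative chosen after seeing the data), and 1.39 to 1.48 with 1 library. The other differences between the classes were less stable. The core minus regulatory difference in 3′ UTR share turned to 3.57 percentage points at p at or under 1e-05 and to 1.28 without the assembly chaperones. It was -0.604 with CDS given priority, -2.79 with repeated peaks only, -1.66 after subtracting length and -0.604 with the representative transcript only, the last also chosen after seeing the data. The difference in CDS share was -6.61 at p at or under 1e-05, -1.57 after subtracting length, 5.31 with repeated peaks only and -1.90 to 3.77 with 1 library. The difference in CDS coverage was 16.3 at p at or under 1e-05 and kept its sign in all alternatives run. The cause of these changes was not tested.

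Overlap between the libraries, a mean of 78.4%, was 68.9% when 50% of a peak had to be shared and 89.7% at p at or under 1e-05, where 12 genes in place of 21 had a repeated 3′ UTR peak. With all summits of a gene searched in place of the strongest, a mean of 2.0 genes per library held the Pumilio letters, 6.0 ATTTA, 2.5 the GU repeat and 6.5 GGGNNNGGG, and a window of 50 nt gave 0.5 for the GU repeat. These counts have no share over all protein-coding genes beside them, so they do not show if the letters are common or rare here. The share of protein-coding reads held by the 43 genes, 0.603%, was 0.616% with shared peaks counted once and 0.683% at p at or under 1e-05. No paired analysis was possible because the libraries form a single group. Sequencing depth is unknown, so a gene without a listed peak cannot be told from one too shallow to be called.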
